A study of Mus musculus with 9 samples.

Results

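Small heat shock proteins are chaperones built around a shared α-crystallin domain. They bind partly unfolded proteins without using ATP and hold them until ATP-driven chaperones refold them or degradation pathways remove them. Heart muscle is known for high levels of several members, which sit on desmin filaments, actin and the sarcomere. The genes described here are the 7 rows of the deposited count table with the symbols Cryab, Hspb1, Hspb2, Hspb3, Hspb6, Hspb7 and Hspb8, out of 55367 symbols. They were chosen by symbol, with earlier results of these data known, and 7 of 7 passed the filter on low counts, as did 15138 symbols in all.

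RNA of mouse left ventricle was sequenced in 9 libraries: 3 after sham surgery (sham), 3 after myocardial infarction (MI) and 3 after MI with BPD treatment (MI+BPD, or "with BPD" where values are listed by group). The labels place the infarcted hearts at day 14 and give sham no day of its own. They give no strain, sex, age, BPD dose or expansion of the abbreviation, and describe the treatment only as aimed at the proliferative phase. The tissue took in the infarct core and the zone around it, which sham hearts lack, so sham and infarcted samples may also come from different regions of the wall. Nothing in the labels says that libraries of a group came from separate animals, so p-values measure the spread between these libraries, which may be technical.

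Total counts ran from 14451410 to 17703461 in sham, from 19101748 to 19269072 in MI, and from 17006222 to 17424302 with BPD. Genes of mitochondrial DNA took 34.4% to 35.2% of the counts in sham, 11.4% to 18.2% in MI and 17.6% to 25.7% with BPD. The tissue label was checked on 19 heart muscle genes (sarcomere and calcium-handling genes such as Myh6, Tnnt2 and Ryr2). Their summed level, in CPM (the read count scaled by library size, here with the trimmed mean of M values, TMM), was 111247 to 115682 in sham, 25916 to 45020 in MI and 42273 to 63275 with BPD. Within MI, replicate 3 had both the highest level of these genes and the highest mitochondrial share. Within MI+BPD, replicate 1 had both, at 63275 CPM and 25.7%. The values were 42993 CPM and 17.6% in MI+BPD 2, and 42273 CPM and 17.7% in MI+BPD 3. In bulk tissue, fewer cells of a type and less RNA per cell cannot be told apart. Markers of skeletal muscle, which also expresses these chaperones, were near 0: the summed level of 9 such genes was 2.47 to 3.67 CPM in sham, 4.76 to 7.09 in MI and 3.11 to 10.4 with BPD, and Myh4 and Myog had 0 counts in sham.

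Heat shock factors bind repeats of the unit GAA and its inverse TTC, and the stretches below show where the paired unit lies near the start sites of the members. RefSeq promoter windows (GRCm38.p6, 300 bases around each start, most of them before it) were matched for 5 members: Hspb1, Hspb3, Hspb6, Hspb7 and Hspb8. The letters GAANNTTC, which read the same on both strands, occurred in the windows of Hspb1, Hspb3, Hspb6 and Hspb8, and not in the window of Hspb7. They occurred in 7.86% of 32851 windows, or for 9.04% of genes. Capitals mark the match in each stretch, given 5′ to 3′ on the strand of the gene.
Hspb1, chr5:135887779-135887848, plus strand: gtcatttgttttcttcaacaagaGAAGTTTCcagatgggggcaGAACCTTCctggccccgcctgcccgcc
Hspb6, chr7:30553156-30553215, plus strand: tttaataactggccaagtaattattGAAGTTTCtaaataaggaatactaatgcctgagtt
Hspb8, chr5:116422853-116422912, minus strand: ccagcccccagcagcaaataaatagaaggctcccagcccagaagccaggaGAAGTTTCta
Hspb3, chr13:113663867-113663926, minus strand: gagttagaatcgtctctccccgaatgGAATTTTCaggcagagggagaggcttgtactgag
Counted from the start site, the matches began at -117 and -97 in Hspb1, -120 in the second of the windows of Hspb6, 3 in Hspb8 and -224 in Hspb3. The first window of Hspb6 held none. Hspb1, Hspb6 and Hspb8 shared the same 8 letters, GAAGTTTC, found on either strand in 1.21% of windows; these letters were singled out after the stretches were seen. The inverse pair TTCNNGAA, which occurred in 8.52% of windows, was in none of the matched windows, and neither was the unit of 3 alternating repeats on either strand (0.603% of windows). A match describes letters, not binding.

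Counts per kilobase of exon allow levels to be compared between genes. In sham the order of mean CPM per kb was Cryab (765 ± 34.6), Hspb7 (513 ± 20.1), Hspb6 (257 ± 13.4), Hspb8 (238 ± 12.1), Hspb1 (74.1 ± 6.50), Hspb2 (47.1 ± 5.57) and Hspb3 (12.1 ± 2.40; SD, n = 3 each), with the length of all exons together from GENCODE M21. Cryab encodes αB-crystallin, a chaperone of desmin, and Hspb7 encodes a cardiovascular member that binds filamin C. The means kept this order in MI and in MI+BPD. The order of the means was the same with the length of a principal transcript, but which neighbours overlapped was not. With all exons together, Hspb6 and Hspb8 nearly met in sham (lowest library 248.3 against highest 247.6 CPM per kb), and Cryab overlapped Hspb7, and Hspb6 overlapped Hspb8, in both infarcted groups. With principal transcripts, a length chosen after seeing the data, sham had 434 ± 22.6 for Hspb6, 256 ± 13.04 for Hspb8, and 1353 ± 61.3 (shortest) or 1013 ± 45.9 (longest) for Cryab. On those lengths neither pair overlapped in MI+BPD, Hspb6 and Hspb8 still overlapped in MI, and Cryab and Hspb7 overlapped in MI with the longest transcript of Cryab only.

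The comparison of MI with sham shows how the members differed between infarcted and sham ventricle. With TMM scaling, 6 of 7 members were lower in MI, and Hspb1 did not pass the test. The fitted ratio of MI to sham lay between 0.435 for Hspb3 and 0.502 for Hspb2 in 5 of the 6, and was 0.615 for Hspb7. The background was wide: 31.9% of all genes tested were called lower and 37% higher, and libraries of MI lay wholly below those of sham for 34.3% of genes. Directions against sham depended on the scaling: when only library totals were used for scaling, the median log2 fold change of all genes moved from 0.07 to 0.81, Hspb1 became higher (0.58, edgeR adjusted p = 0.00175), Hspb7 stood at 0.02, and Hspb2 and Hspb3 no longer passed (adjusted p = 0.0612 and 0.0911). Relative to the median of all genes, the 7 members lay between -1.27 and -0.22 with TMM and between -1.29 and -0.23 with library totals.

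Cryab had 1114, 1189 and 1091 CPM in sham, 395, 487 and 633 in MI, and 662, 603 and 519 with BPD. Every infarcted library, treated or not, was below every sham library. The log2 fold change of MI against sham was -1.16 ± 0.18 (SE; edgeR quasi-likelihood test of all genes, adjusted p = 4.42e-04).

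Hspb6 encodes HSP20, a target of protein kinase A that binds actin-associated proteins in heart and smooth muscle. It had 571, 577 and 627 CPM in sham, 205, 230 and 355 in MI, and 381, 317 and 311 with BPD. Its infarcted libraries did not reach the sham range, and MI 3 was well above the other MI libraries. The log2 fold change of MI against sham was -1.17 ± 0.20 (edgeR adjusted p = 6.67e-04).

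Hspb8 encodes HSP22, which joins the co-chaperone BAG3 to send damaged proteins of the Z-disc to autophagy. It had 483, 473 and 438 CPM in sham, 181, 201 and 276 in MI, and 316, 249 and 239 with BPD, again with no overlap between sham and the infarcted libraries. The log2 fold change of MI against sham was -1.08 ± 0.17 (edgeR adjusted p = 4.78e-04).

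Hspb2 and Hspb3 encode partners that assemble with each other during muscle differentiation, and HSPB2 is known for binding the myotonic dystrophy kinase DMPK. Hspb2 had 34.2, 40.4 and 43.3 CPM in sham, 16.3, 18.9 and 24.1 in MI, and 25.2, 20.7 and 23.8 with BPD, and its log2 fold change of MI against sham was -0.99 ± 0.15 (edgeR adjusted p = 3.49e-04). Hspb3 was the lowest member and the most variable, with 7.41, 9.97 and 11.1 CPM in sham, 3.48, 2.97 and 5.98 in MI, and 6.77, 5.95 and 4.16 with BPD. Both genes had no infarcted library within the sham range. The log2 fold change of Hspb3 in MI against sham was -1.20 ± 0.29 (edgeR adjusted p = 0.00455), on 340 reads in sham and 291 in MI.

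Cryab and Hspb2 lie back to back on chromosome 9 on opposite strands. In GENCODE M21 their exons share 252 bases, which is 30.2% of the exon length of Hspb2 and 17% of that of Cryab. The strand setting of the counting is not given in the sources used here, so the split of reads between these genes, and above all the level of the lower gene Hspb2, is uncertain. The log2 ratio of Cryab to Hspb2 within a library was 4.85 ± 0.19 in sham, 4.66 ± 0.06 in MI and 4.67 ± 0.21 with BPD (SD, n = 3 each). No pair of groups was separated (2-sided exact permutation p = 0.3 for MI against sham, 0.8 for MI+BPD against MI and 0.4 for MI+BPD against sham; the smallest possible is 0.1). Hspb6 shares 122 exonic bases with Proser3 on the opposite strand and 77 with Gm38670 on its own strand, 5.31% and 3.35% of its exon length.

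Hspb7 had the largest share of the reads of the family. It had 1466, 1437 and 1359 CPM in sham, 724, 774 and 1125 in MI, and 1095, 1100 and 1067 with BPD. Its log2 fold change in MI was nearest to 0 among the called members, at -0.70 ± 0.18 (edgeR adjusted p = 0.00664). MI 3 lay above each MI+BPD library, while MI 1 and MI 2 lay below them.

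Hspb1 encodes HSP27, an actin-binding chaperone that many cell types express besides muscle. It had 75.8, 83.4 and 70.0 CPM in sham, 55.3, 73.3 and 78.3 in MI, and 62.4, 70.4 and 62.7 with BPD, so each pair of groups overlapped. The log2 fold change of MI against sham was -0.15 ± 0.13 (95% interval -0.44 to 0.14, edgeR adjusted p = 0.332).

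**Figure D1:**
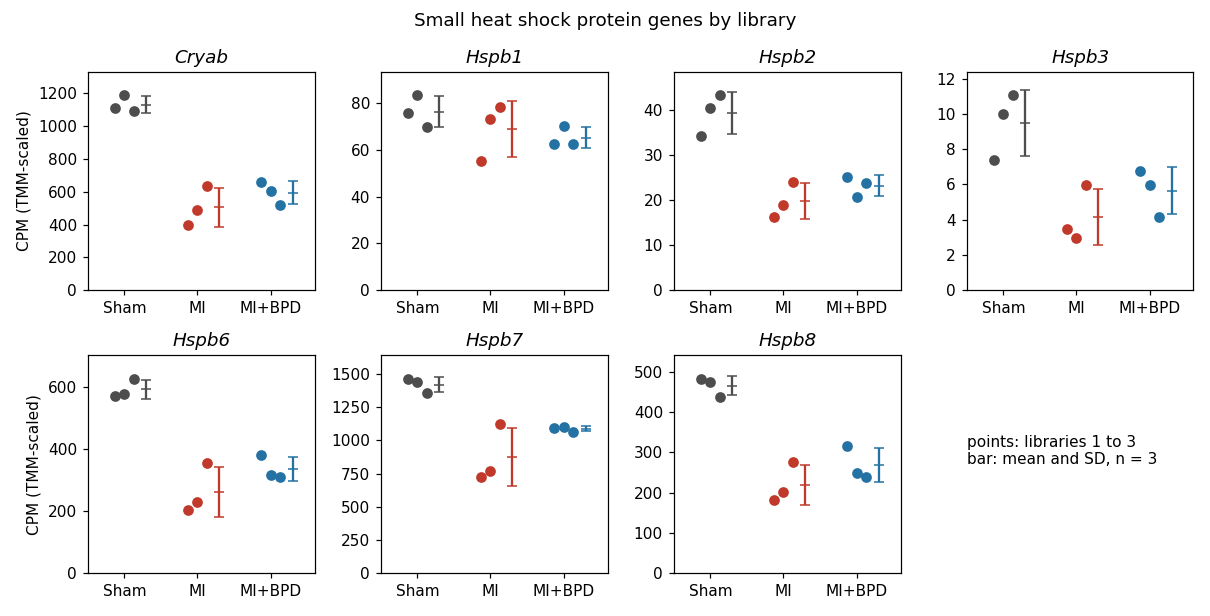
CPM (TMM-scaled, linear axis from 0) of the 7 genes in sham, MI and MI+BPD; points are libraries 1 to 3 from left to right in each group, and the bar beside them is the mean with its SD (n = 3). Sham stands above MI in 6 of 7 genes without overlap, Hspb1 overlaps throughout, and MI 3 is the highest MI library for 7 of 7, a share not computed for all genes.

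The share of each gene in the reads of the family does not depend on the scaling. Hspb7 held 38.1% ± 0.918 of the reads of the 7 genes in sham, 44.7% ± 1.29 in MI and 45.8% ± 2.54 with BPD. Cryab held 30.3% ± 0.802, 25.9% ± 1.20 and 24.9% ± 1.42, and Hspb1 held 2.04% ± 0.134, 3.58% ± 0.487 and 2.75% ± 0.271, in the same order of groups (SD, n = 3 each). The family as a whole summed to 3733 ± 86.9 CPM in sham, to 1955 ± 480 in MI and to 2380 ± 162 with BPD. As a percentage of all counts, with no scaling, it took 0.279 ± 0.00824, 0.240 ± 0.0395 and 0.255 ± 0.00787 in that order.

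**Figure D2:**
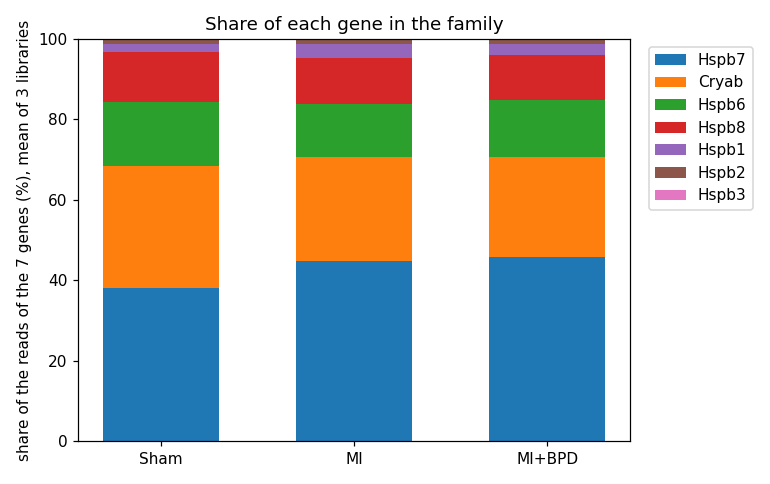
Stacked bars of the share (%) that each gene took of the reads of the 7 genes, as the mean of 3 libraries in sham, MI and MI+BPD. The Hspb7 block is larger in both infarcted groups (44.7% and 45.8%) than in sham (38.1%), and the Cryab block is smaller (25.9% and 24.9% against 30.3%).

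Ratios to Cryab within each library describe the same shift without any scaling factor; they were chosen after the values were seen. The log2 ratio of Hspb1 to Cryab was -3.89 ± 0.07 in sham, -2.86 ± 0.14 in MI and -3.18 ± 0.19 with BPD, with no overlap between any pair of groups. The log2 ratio of Hspb7 to Cryab was 0.33 ± 0.06 in sham, 0.79 ± 0.11 in MI and 0.88 ± 0.16 with BPD, where the last 2 groups overlapped. The ratios of Hspb2, Hspb3, Hspb6 and Hspb8 to Cryab overlapped in 12 of 12 comparisons of groups. Over these 18 comparisons the smallest exact permutation p was 0.1, the smallest that 3 against 3 can give, or 0.36 after Benjamini-Hochberg adjustment. Cryab itself lay at percentile 10.8 of the log2 fold changes of all genes in MI against sham and 9.62 in MI+BPD against sham, so most genes rose relative to it. In MI+BPD against MI it lay at percentile 81.9, so most genes fell relative to it. The share of all genes whose ratio to Cryab did not overlap was not computed.

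Treated and untreated infarcted hearts were compared next. None of the 7 members passed the test, and neither did any other gene: 0% of 15138 genes were called by edgeR, while 2043 had an unadjusted p under 0.05, DESeq2 called 48 and limma-voom 992. The libraries of the 2 groups overlapped for 7 of 7 members with TMM scaling, where 13.9% of all genes did not overlap. The fitted ratio of MI+BPD to MI was 1.18 for Cryab (95% interval 0.886 to 1.57), 1.18 for Hspb2 (0.930 to 1.49), 1.36 for Hspb3 (0.869 to 2.13), 1.28 for Hspb6 (0.939 to 1.74), 1.24 for Hspb7 (0.940 to 1.65) and 1.22 for Hspb8 (0.933 to 1.60). For Hspb1 it was 0.945 (0.773 to 1.16). The edgeR adjusted p of the 7 lay between 0.427 and 0.777, and these intervals leave room for a change in either direction.

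MI 3 was the highest MI library for 7 of 7 members. The share of all genes for which it was the highest was not computed. Without MI 3, edgeR called 1353 of 15453 genes tested in this comparison, 1126 of them higher. Hspb6 (log2 fold change 0.63, adjusted p = 0.0334) and Hspb7 (0.54, adjusted p = 0.0352) were among those called. limma-voom with quality weights called Hspb7 (0.45, adjusted p = 0.0426) with all libraries. The 19 heart muscle genes had a median log2 fold change of 0.58 in the same comparison with 0 of 19 called. MI 3 was the MI library with the highest level of these genes, and MI+BPD 1 was the treated library with the highest. The part of these genes in the result was not tested.

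Treated hearts were then set against sham, with the same sham libraries as before. With TMM scaling 5 of 7 members were lower, beside 27.8% of all genes called lower and 31.8% higher. The log2 fold changes were -0.93 ± 0.18 for Cryab (edgeR adjusted p = 0.00247), -0.76 ± 0.15 for Hspb2 (0.00248), -0.76 ± 0.29 for Hspb3 (0.0441), -0.82 ± 0.20 for Hspb6 (0.00642) and -0.79 ± 0.17 for Hspb8 (0.00385). The call of Hspb3 was lost with no filter on low counts (adjusted p = 0.0692), with a replicate block (0.0788), and without Sham 2 (0.110), Sham 3 (0.144), MI+BPD 2 (0.0837) or MI+BPD 3 (0.147). Hspb7 did not pass at -0.39 ± 0.18 (adjusted p = 0.0908), although its treated libraries lay wholly below sham, as they did for 32.7% of genes. It passed with DESeq2 (adjusted p = 0.0220), with limma-voom (0.00475), with the 2 groups alone in edgeR (0.0230) and without MI 3 (0.00978). Hspb1 was at -0.23 ± 0.13 (adjusted p = 0.155). With scaling by library totals 1 member, Cryab, was called lower, and Hspb1 (0.30) and Hspb7 (0.14) changed sign without passing.

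**Figure D3:**
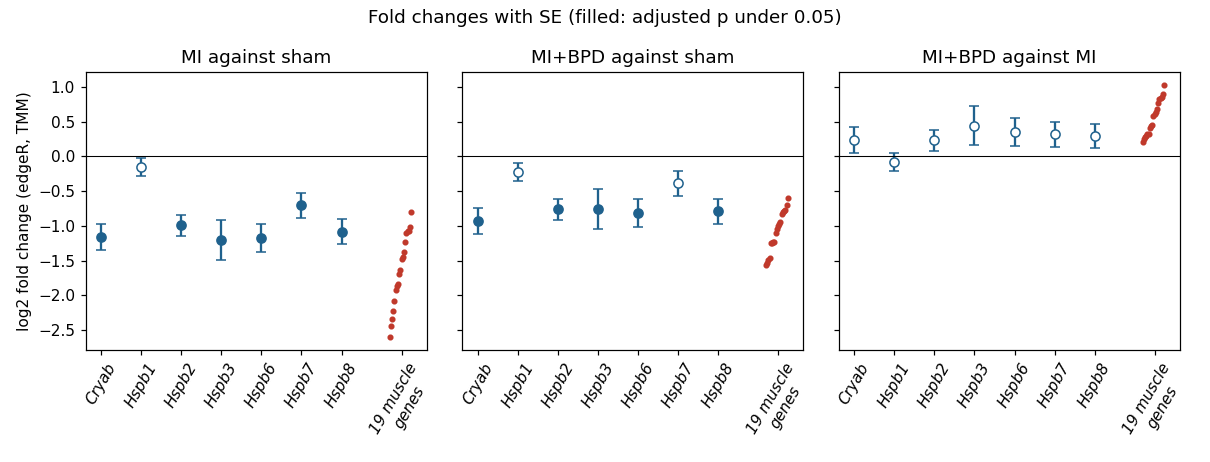
Log2 fold changes (edgeR, TMM scaling) of the 7 genes with their SE in the 3 comparisons; filled points passed an adjusted p of 0.05, and red dots are the 19 heart muscle genes in order of size. Against sham the heart muscle genes run from -2.60 to -0.81 in MI, and 0 of them lies above Hspb1 or Hspb7.

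The heart muscle genes were lower in the same comparison. In MI against sham 19 of 19 heart muscle genes were called lower, with a median log2 fold change of -1.64 and a range from -2.60 (Hrc, a calcium-binding protein of the sarcoplasmic reticulum) to -0.81 (Mybpc3, cardiac myosin-binding protein C). The fold change was lower than that of Cryab, Hspb3 and Hspb6 in 14 of the 19, than that of Hspb8 in 15, than that of Hspb2 in 18, and than those of Hspb7 and Hspb1 in 19. Fibroblast markers moved the other way: 10 of 10 were higher, and their summed level went from 1207 to 1385 CPM in sham to 15163 to 22282 in MI and 20568 to 22227 with BPD. Among 11 markers of smooth muscle and pericytes, which also express Hspb1 and Hspb6, 5 were higher and 4 lower. Their summed level was 1992 to 2142 CPM in sham, 1616 to 1758 in MI and 1737 to 2005 with BPD. Rgs5 and Abcc9, the highest of these markers in sham, went from 870 to 596 and from 613 to 188 CPM in MI. The mean log2 CPM of the 11 went the other way, at 5.90 ± 0.17 in sham, 6.26 ± 0.17 in MI and 6.28 ± 0.11 with BPD (SD). Of 8 endothelial markers 6 were lower (1368 to 1608 CPM summed in sham, 855 to 1084 in MI and 959 to 1130 with BPD), and of 8 macrophage markers 7 were higher (357 to 432, 660.0 to 1162 and 864 to 1149). These splits are those of TMM scaling: with library totals 4 endothelial markers were higher and 2 lower, and 7 of smooth muscle and pericytes were higher and 1 lower. Per unit of heart muscle transcripts, 8 of 8 endothelial markers and 10 of the 11 of smooth muscle and pericytes were higher and 0 of either lower. On that scale 88.3% of all genes were called higher. The median log2 fold change was 1.27 for the endothelial list and 2.38 for smooth muscle and pericytes, beside 1.81 for all genes. The part of these cell types in the levels of the members was not tested.

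A second fit set the libraries to an equal mean level of the 19 heart muscle genes, so that each value is a level per unit of heart muscle transcripts. On this scale 6 of 7 members were higher in MI than in sham, where 88.3% of all genes were called higher and the median log2 fold change of all genes was 1.81. Hspb1 had the largest log2 fold change of the 7 at 1.56 ± 0.24 (edgeR adjusted p = 4.39e-05), followed by Hspb7 at 0.97 ± 0.20 (4.48e-04), Hspb2 at 0.70 ± 0.22 (0.00853), Hspb8 at 0.60 ± 0.19 (0.00912), Cryab at 0.51 ± 0.20 (0.0239) and Hspb6 at 0.49 ± 0.19 (0.0240). Hspb3 did not pass at 0.45 ± 0.27 (0.126). The 19 heart muscle genes themselves did not move together on this scale: 6 were called higher, 5 lower and 8 did not pass. Those called higher ran from 0.43 for Ldb3 to 0.88 for Mybpc3. Cryab, Hspb2, Hspb3, Hspb6 and Hspb8 lay within that range, and only Hspb7 and Hspb1 lay above it. All 7 members lay below the median of all genes, with Hspb1 at percentile 38.3 and the other 6 between percentiles 9.75 and 18.4. The calls of Cryab and Hspb6 were lost when any 1 sham library or MI 2 was left out (adjusted p up to 0.109), that of Hspb2 without Sham 1 (0.0525) and that of Hspb8 without Sham 3 (0.0611).

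Within libraries, the log2 ratio of Hspb1 to the mean of the heart muscle genes was -5.50, -5.36 and -5.66 in sham, against -3.96, -3.66 and -4.29 in MI, and -5.03, -4.38 and -4.46 with BPD. MI lay above MI+BPD and MI+BPD above sham, with no overlap. For Hspb7 the ratio was -1.23, -1.25 and -1.39 in sham, against -0.26, -0.26 and -0.44 in MI, and -0.90, -0.41 and -0.38 with BPD, and the infarcted groups overlapped. All 7 members had MI libraries above the sham libraries, beside 89.7% of all genes on this scale, and the exact permutation p was 0.1 each, the smallest possible (0.131 after adjustment over 21 comparisons).

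Between MI+BPD and MI on this scale, no member and no other gene was called (0% of 15138), and the log2 fold changes of the members ran from -0.65 ± 0.24 for Hspb1 (edgeR adjusted p = 0.102) to -0.10 ± 0.27 for Hspb3 (0.733). The median log2 fold change of all genes was -0.60. Hspb1 lay at percentile 41.6 of all genes, and the rest of the members lay between percentiles 83.4 and 92.7, so they fell less than most genes. Cryab, Hspb1, Hspb6 and Hspb8 had treated libraries wholly below MI, as 14.8% of all genes did. Without MI 3 the fit called 11692 of 15453 genes tested, 93 of them higher, and the median log2 fold change of all genes was -0.82. Cryab (-0.41, edgeR adjusted p = 0.0373), Hspb1 (-0.79, 0.00438) and Hspb8 (-0.37, 0.0497) were among those called, each with a smaller fall than that median. Against sham, treated hearts had higher Hspb1 (0.91 ± 0.24, adjusted p = 0.00403) and Hspb7 (0.74 ± 0.20, 0.00462), beside 77.2% of all genes, and the other 5 did not pass.

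**Figure D4:**
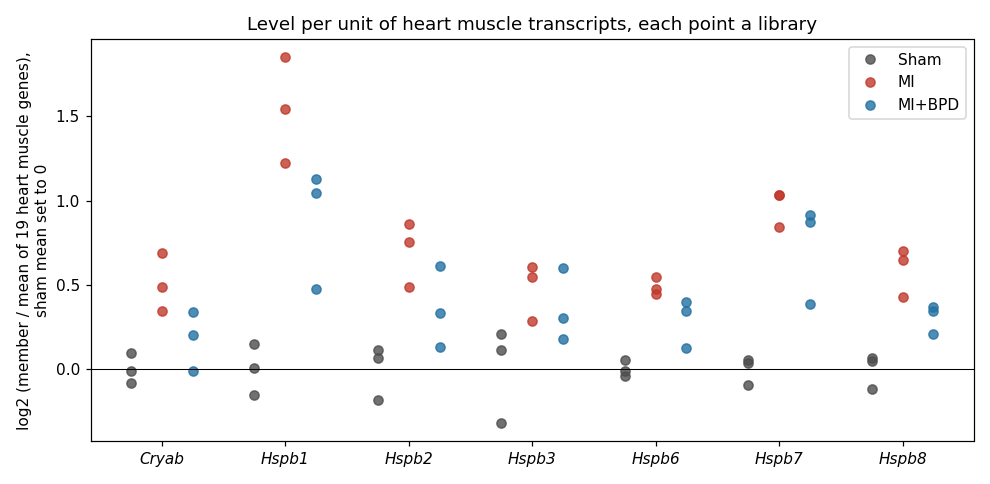
Log2 ratio of each gene to the mean of 19 heart muscle genes, with the sham mean of each gene set to 0; each point is a library. MI lies above sham for 7 of 7 genes, with the widest step in Hspb1, whose 3 groups do not overlap.

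The other chaperones and their partners were taken from lists of 75 genes, of which 71 were tested. In MI against sham with TMM scaling, 42 were lower and 10 higher, and the median log2 fold change was -0.43 beside 0.07 for all genes. Of all genes 31.9% were called lower and 37% higher, the shares to set beside the counts of each list below. With scaling by library totals the split was 16 lower and 40 higher, against 1765 lower and 10488 higher for all genes, so directions below are those of the TMM fit; the median of the lists lay 0.50 below that of all genes with TMM and 0.51 below it with library totals. Per unit of heart muscle transcripts 63 of 71 were higher and 1 lower, where 88.3% of all genes were called higher, and their median log2 fold change was 1.28 beside 1.81 for all genes.

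Partners of HSPB8 belong to the list for BAG proteins and selective autophagy. Of 13 genes of this list 8 were lower and 0 higher. Bag3, the co-chaperone that binds HSPB8, had 201 ± 12.2 CPM in sham, 104 ± 14.8 in MI and 122 ± 11.4 with BPD (SD, n = 3 each), a log2 fold change of -0.95 ± 0.12 in MI against sham (edgeR adjusted p = 1.39e-04); it was lower with library totals too (-0.23, adjusted p = 0.0362). Bag1, a nucleotide exchange factor for HSP70, was also lower (-1.11 ± 0.13). Stub1, the ubiquitin ligase CHIP, stood at -0.71 ± 0.09 and Bag6 at -0.49 ± 0.08; with library totals these 2 stood at 0.02 and 0.25.

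Heat shock factor genes and their regulators gave 3 lower and 0 higher of 5 tested. Hsf1, the main factor of the heat shock response, had 23.1 ± 2.11 CPM in sham and 17.2 ± 2.19 in MI (log2 fold change -0.43 ± 0.11, edgeR adjusted p = 0.00802; 0.30 with library totals). Hsbp1l1 had the largest fall of the list (-2.76 ± 0.40), but at a low level: 3.17 ± 0.437 CPM (113 reads) in sham and 0.461 ± 0.0266 CPM (33 reads) in MI. Hsbp1, whose product binds HSF1, stood at -0.42 ± 0.07 (0.32 with library totals).

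The ATP-driven families refold what the small heat shock proteins hold. In the HSP70 and HSP110 list 3 of 12 were higher and 5 lower. Hspa1b, an HSP70 gene, went from 1.23 ± 0.638 to 3.90 ± 0.982 CPM (1.64 ± 0.33), but its near-identical copy Hspa1a (0.64 ± 0.28, edgeR adjusted p = 0.0683) may share reads with it. Hspa13 (0.75 ± 0.11) was higher, and Hspa4l (-0.90 ± 0.13) and Hspa12a (-1.12 ± 0.20) were lower. In the HSP40 list 1 of 9 was higher, Dnajb1 (0.48 ± 0.17), and 7 were lower, led by Dnajb2 (-0.80 ± 0.11), Dnaja2 (-0.99 ± 0.13), Dnajb5 (-1.52 ± 0.23) and Dnaja4 (-0.73 ± 0.17). Of 15 genes for HSP90 and its co-chaperones 11 were lower and 2 higher. The myosin chaperone Unc45b (-1.64 ± 0.21) and Fkbp4 (-2.01 ± 0.29) were among the lower, with Ahsa1 (-0.66 ± 0.09) and Cdc37 (-0.60 ± 0.08). Those higher were Hsp90aa1 (0.56 ± 0.13) and Unc45a (0.32 ± 0.09). Of 7 organelle chaperones 5 were lower, with the mitochondrial Hspd1 (-1.63 ± 0.21), Hspa9 (-1.54 ± 0.21), Trap1 (-1.18 ± 0.14) and Hspe1 (-1.09 ± 0.16) at the head of the list. With library totals Ahsa1 (0.06) and Cdc37 (0.13) changed sign and Dnajb2 (-0.08), Dnaja4 (-0.02) and Hspa4l (-0.18) did not pass.

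Small heat shock proteins bind filament and Z-disc proteins as clients. Of 10 client genes 3 were higher and 3 lower in MI, near the 37% higher and 31.9% lower of all genes. Vim, the intermediate filament of fibroblasts and other mesenchymal cells, went from 146 ± 15.8 CPM in sham to 825 ± 87.3 in MI (log2 fold change 2.50 ± 0.16), and Lmna (0.99 ± 0.10) and Nes (0.45 ± 0.14) were higher. Dmpk, the kinase bound by HSPB2, was lower (-1.04 ± 0.14), as were Actn2 (-1.08 ± 0.19) and Ttn (-1.38 ± 0.25), which also belong to the 19 heart muscle genes. Des, the main client filament of αB-crystallin, had 1404 ± 23.6 CPM in sham, 1102 ± 149 in MI and 1123 ± 213 with BPD and did not pass (-0.35 ± 0.18, edgeR adjusted p = 0.106).

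**Figure D5:**
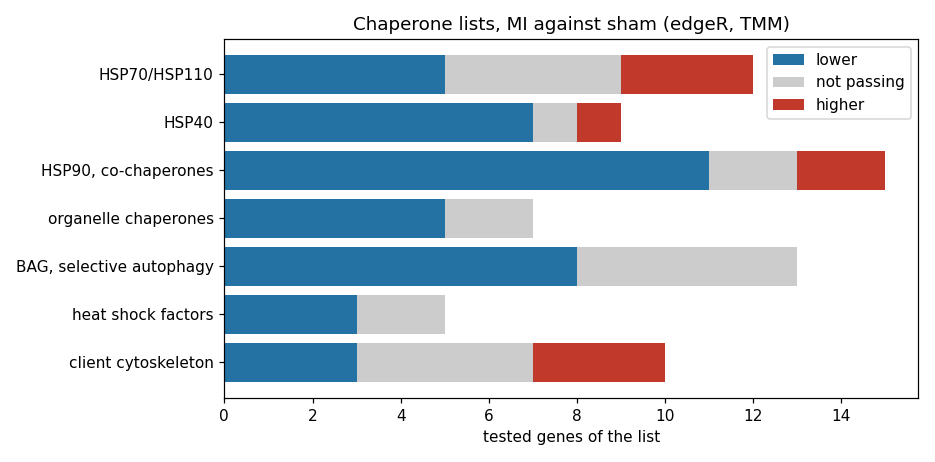
Number of tested genes in each of 7 chaperone and client lists that were lower (blue), not passing (grey) or higher (red) in MI against sham (edgeR, TMM scaling). Lower genes outnumber higher ones in 6 lists, and the client list has 3 of each; with library totals the counts shift to 40 higher and 16 lower over all lists.

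Treated hearts against sham gave 40 of the 71 genes lower and 10 higher with TMM, beside 27.8% of all genes lower and 31.8% higher. With library totals the split was 12 lower and 31 higher, against 1383 lower and 9131 higher for all genes. With TMM, Bag3 stood at -0.71 ± 0.12, Hspd1 at -1.15 ± 0.21, Unc45b at -1.13 ± 0.21 and Hspa1b at 1.52 ± 0.34. In MI+BPD against MI 0 of 71 were called by edgeR. The smallest unadjusted p were those of Bag1 (0.37 ± 0.13) and Hsbp1l1 (1.14 ± 0.42), both with an edgeR adjusted p of 0.369. Hsbp1l1 rested on 33 reads in MI and 56 with BPD. Further genes outside the muscle set were listed by symbol, with no check that they encode the α-crystallin domain. Of these, Hspb11 was tested and higher in MI (0.45 ± 0.15, edgeR adjusted p = 0.0270), at 3.29 ± 0.382 CPM in sham and 4.48 ± 0.399 in MI. Its symbol alone does not make it a small heat shock protein. Hspb9 and Odf1 had 2 reads or fewer in each group, and Cryaa, the lens crystallin, had 30 reads in MI+BPD, all in 1 library, and 2 or fewer in the other groups.

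For each member the 3 genes of most like pattern were taken among 10534 genes, by the root mean square difference of centred log2 CPM over the 9 libraries. For Cryab these were Trp53inp2 (0.05), Aldoa (0.06) and Nexn (0.06), for Hspb6 Ghitm, Nebl and Myo18b, and for Hspb8 Kif21a (0.04), Mul1 and Cep68. Hspb2 was nearest to Mrps14, Mcat and Romo1, and Hspb7 to Golga4, Kpna3 and Anapc16. Hspb3 had no near neighbour (Srpk3 at 0.14, then Hacd1 and Klhl41). Hspb1 was nearest to Ssna1 (0.06), Flnc (0.08) and Serf2 (0.08); Flnc encodes filamin C and had a log2 fold change of -0.18 ± 0.13 in MI against sham. Among the members themselves the nearest pair was Cryab and Hspb8 (0.09) and the farthest Hspb1 and Hspb3 (0.53). These distances are a description over libraries that share their depth and tissue makeup.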

How the data were processed

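The deposited table holds raw read counts per gene symbol, as whole numbers with no normalization, per the file headers and the values. Per the labels' protocols, RNA with an integrity number above 7 was made into VAHTS Universal V6 libraries and read as 150 bp pairs on DNBSEQ-T7. Alignment was with STAR, per the submitters' processing notes, which name mm10, GRCm39 and mm39 without a role. Which program counted the reads, with which strand setting and annotation, is not given in the sources used here.

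Counts of 9 libraries were fitted by group in R 4.3.3 with edgeR 4.0.16: TMM factors, filterByExpr (minimum count 10, total 15) and a robust quasi-likelihood test with 6 residual degrees of freedom. Tests were 2-sided, and Benjamini-Hochberg adjustment ran over all 15138 genes tested, with a threshold of 0.05. The biological coefficient of variation was 0.167. A second fit scaled libraries on 19 heart muscle genes. Log2 CPM used a prior count of 2. The procedure was tested on simulated data. Alternatives were DESeq2 1.42.0, limma-voom (limma 3.58.1), other scalings and filters, a replicate block, omission of mitochondrial genes, and omission of each library. Reads carry no molecular identifiers, so counting precision is not that of molecules; libraries of a group differed by more than counting noise, and none were duplicates.

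Genes were named by a rule: the 7 members, up to 4 genes of smallest adjusted p per chaperone list, with Bag3, Hsf1 and Des, and 3 genes of like pattern per member (mean of at least 5 CPM). Members and lists were chosen with earlier results of these data known. Further list genes and the ratios to Cryab were named after their values were seen.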

Additional observations from a re-analysis of the deposited data

How the results depend on the processing

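In MI against sham with TMM, the count of called members stayed at 6 of 7 in each of the 9 fits that left out 1 library. Reversals with library totals as the only scaling were Hspb1 (0.58) and Hspb7 (0.016) in MI against sham and Hspb1 (0.30) and Hspb7 (0.14) in MI+BPD against sham, where 1 member stayed called; the median of all genes was 0.81 and 0.57 under that scaling. In MI+BPD against MI, Hspb1 stood at 0.021 without MI 3 (-0.22 to 0.021 over the fits that left out 1 library), and Cryab at -0.0065 with MI 1 and MI+BPD 1 left out together, a choice made after seeing the data; the cause was not tested. DESeq2 called 48 genes there and 0 members, and limma-voom 992 genes, 1 member and 6 chaperone list genes. Leaving out 1 library gave 0 to 1353 genes, 0 to 2 members and 0 to 10 chaperone list genes, the upper values without MI 3. In MI+BPD against sham Hspb7 passed with DESeq2 (adjusted p = 0.0220), limma-voom (0.00475), the 2 groups alone (0.0230) or without MI 3 (0.00978), and Hspb3 was lost with no filter (0.0692) and without Sham 2, Sham 3, MI+BPD 2 or MI+BPD 3 (up to 0.147).

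Per unit of heart muscle transcripts, members called in MI against sham numbered 3 with no filter and 3 to 6 with 1 library left out. In MI+BPD against MI on that scale, 172 genes were called with no filter and 2 with MI 1 and MI+BPD 1 left out. Leaving out 1 library gave 0 to 11692 genes, 0 to 3 members and 0 to 55 chaperone list genes. The upper values were those without MI 3, where 15453 genes were tested.

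Whether replicate numbers pair the libraries was not settled, as so few correlations cannot exclude it. Deviations of same-numbered libraries correlated at -0.05, 0.003 and -0.04 for MI and sham, and at 0.14, 0.19 and -0.16 for MI+BPD and MI. Those of unlike-numbered libraries ran from -0.03 to 0.07 for MI and sham, and from -0.28 to 0.21 for MI+BPD and MI. With the replicate block, Hspb3 was lost in MI+BPD against sham (-0.73, adjusted p = 0.0788), Cryab (0.51, 0.0586) and Hspb6 (0.49, 0.0712) were lost in MI against sham per unit of heart muscle transcripts, and 3 genes were called in MI+BPD against MI on that scale. Hspb3 had the fewest reads of the members, 291 to 340 per group, and its CPM varied by 19.7% to 38.9% (SD over mean) within groups.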
